A study of Homo sapiens with 16 samples.

Results

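MHC class II genes and their coactivator CIITA were followed across 8 human lymphoid cell lines, each measured with and without a drug treatment. The 9 listed symbols were CIITA, CD74, HLA-DRA, HLA-DPA1, HLA-DPB1, HLA-DMA, HLA-DMB, HLA-DOB and HLA-DQB1. All 9 genes were measured, among 11963 genes tested, by 20 of the 22283 probe sets on the array. The genes were listed by symbol, and the list was made with earlier results of these data known. Where a gene had several probe sets, the one with the highest mean stood for it in the tests. Another 3 probe sets that were annotated to one of these symbols and to further genes were not used.

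The arrays were Affymetrix HG-U133A GeneChips, which read a transcript through several short probes close to its 3' end. There were 4 groups of 4 arrays: treated anaplastic large cell lymphoma (ALCL) lines, untreated ALCL lines, treated T-cell leukaemia or lymphoma lines and untreated T-cell lines. The ALCL lines were Karpas 299, FE-PD, JB6 and SU-DHL-1, and the T-cell lines were Jurkat, Molt-3, Molt-4 and CCRF-CEM. Treated cells received 1 µM 5-aza-2'-deoxycytidine, a DNA methyltransferase inhibitor, for 6 days and 625 nM trichostatin A, a histone deacetylase inhibitor, for the last 24 hours. The untreated arrays are labelled only as untreated, with no vehicle named. Each line had 1 array per condition, so lines are the replicates, and no spread within a line is known. Molt-3 and Molt-4 are known to derive from the same patient and are not independent.

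MHC class II molecules carry peptides from the endosomal compartment to the cell surface, where CD4+ T cells read them. Professional antigen-presenting cells make them constantly, and human T cells make them when activated. CIITA binds no DNA itself. It is held at class II promoters by the RFX, CREB and NF-Y protein complexes, which sit on short sequence elements called the X and Y boxes, and the amount of CIITA sets the output of the whole gene group.

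Promoter sequences of the group are printed here, because the X and Y boxes are the elements through which CIITA reaches these genes. RefSeq promoters (GRCh38.p14, 250 bases before to 50 bases after the start) were listed for 7 of the 9 genes, HLA-DRA and CIITA being the exceptions. The windows run from 130 to 31 bases before the start on the gene's own strand. Capitals mark matches on either strand to ATTGG, the core of the Y box and the reverse of CCAAT, or to AGNNACNGA, a core of the X box.

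HLA-DQB1, chr6:32666688-32666787, minus strand: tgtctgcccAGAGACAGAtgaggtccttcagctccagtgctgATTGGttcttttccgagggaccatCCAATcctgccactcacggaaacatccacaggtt
HLA-DMA, chr6:32953128-32953227, minus strand: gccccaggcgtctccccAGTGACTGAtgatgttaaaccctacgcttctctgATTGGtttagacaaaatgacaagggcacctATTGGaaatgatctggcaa
HLA-DMB, chr6:32941059-32941158, minus strand: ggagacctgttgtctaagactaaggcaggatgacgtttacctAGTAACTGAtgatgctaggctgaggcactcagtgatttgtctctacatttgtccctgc
HLA-DPB1, chr6:33075860-33075959, plus strand: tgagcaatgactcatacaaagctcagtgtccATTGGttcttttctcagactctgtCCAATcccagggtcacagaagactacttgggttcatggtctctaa
CD74, chr5:150412941-150413040, minus strand: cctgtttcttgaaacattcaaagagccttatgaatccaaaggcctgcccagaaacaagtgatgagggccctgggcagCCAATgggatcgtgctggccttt

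In the printed window, 5 of the 7 genes held ATTGG, 4 held AGNNACNGA and 2, HLA-DQB1 and HLA-DMA, held both. The same window held ATTGG in 18.8% of all 35116 promoters of the table, AGNNACNGA in 4.9% and both in 0.9%. HLA-DOB held ATTGG and its reverse but no AGNNACNGA. HLA-DPA1 had a pair of promoters in the table, of which one held AGNNACNGA and the other held neither motif. These matches describe letters and say nothing of which factor was bound in the cells.

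Before treatment, class II transcripts were high in FE-PD, JB6 and Karpas 299, and stood in SU-DHL-1 at or close to the level of the T-cell lines. HLA-DRA encodes the invariant alpha chain of HLA-DR. Its probe set 208894_at read 11.67 in FE-PD, 11.36 in JB6, 5.76 in SU-DHL-1 and 13.00 in Karpas 299, against 5.97 in CCRF-CEM, 5.52 in Jurkat, 5.63 in Molt-3 and 5.84 in Molt-4 (log2 RMA values). Values given without line names run in this order. SU-DHL-1 lay inside the range of the T-cell lines, while the other ALCL lines lay at least 5 log2 units above it. The other HLA-DRA probe set, 210982_s_at, gave 11.15, 12.14, 5.38 and 12.88 in the ALCL lines, against 5.26 to 5.35 in the T-cell lines.

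CD74 is the invariant chain, which escorts new class II molecules and blocks their groove. Its untreated level was 13.19 in FE-PD, 12.56 in JB6, 6.37 in SU-DHL-1 and 13.94 in Karpas 299, against 6.39 in CCRF-CEM, 6.26 in Jurkat, 6.29 in Molt-3 and 6.58 in Molt-4. The order, from the top, was Karpas 299, FE-PD and JB6, and then SU-DHL-1 among the T-cell lines. The SD between the 8 untreated lines was 3.57, against a median SD of 0.29 over all genes, and the SD among the T-cell lines alone was 0.15.

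The HLA-DP chains followed, with a different top line. HLA-DPA1, the alpha chain, read 12.12 in untreated FE-PD, 11.69 in JB6, 6.38 in SU-DHL-1 and 13.18 in Karpas 299, against 6.03 in CCRF-CEM, 5.82 in Jurkat, 5.42 in Molt-3 and 5.73 in Molt-4. HLA-DPB1, the beta chain, read 10.50, 12.44, 6.62 and 11.65 in the ALCL lines, against 6.55, 6.49, 6.43 and 6.49 in the T-cell lines. JB6 was thus highest for HLA-DPB1 and Karpas 299 for HLA-DPA1. In both genes SU-DHL-1 lay just above every T-cell line.

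HLA-DMA and HLA-DMB form the editor that exchanges peptides in the class II groove. HLA-DMA read 9.24 in untreated FE-PD, 10.58 in JB6, 6.45 in SU-DHL-1 and 11.47 in Karpas 299, against 6.19 in CCRF-CEM, 6.52 in Jurkat, 5.76 in Molt-3 and 6.08 in Molt-4. HLA-DMB read 8.44, 9.31, 7.32 and 9.89 in the ALCL lines, against 7.12 to 7.23 in the T-cell lines. In both DM genes the order was Karpas 299, JB6, FE-PD and then SU-DHL-1. HLA-DOB encodes the beta chain of HLA-DO, an inhibitor of HLA-DM found mainly in B cells. Its untreated level varied little, between 6.74 and 7.32 in the ALCL lines, against 6.77 to 7.02 in the T-cell lines.

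**Figure D1:**
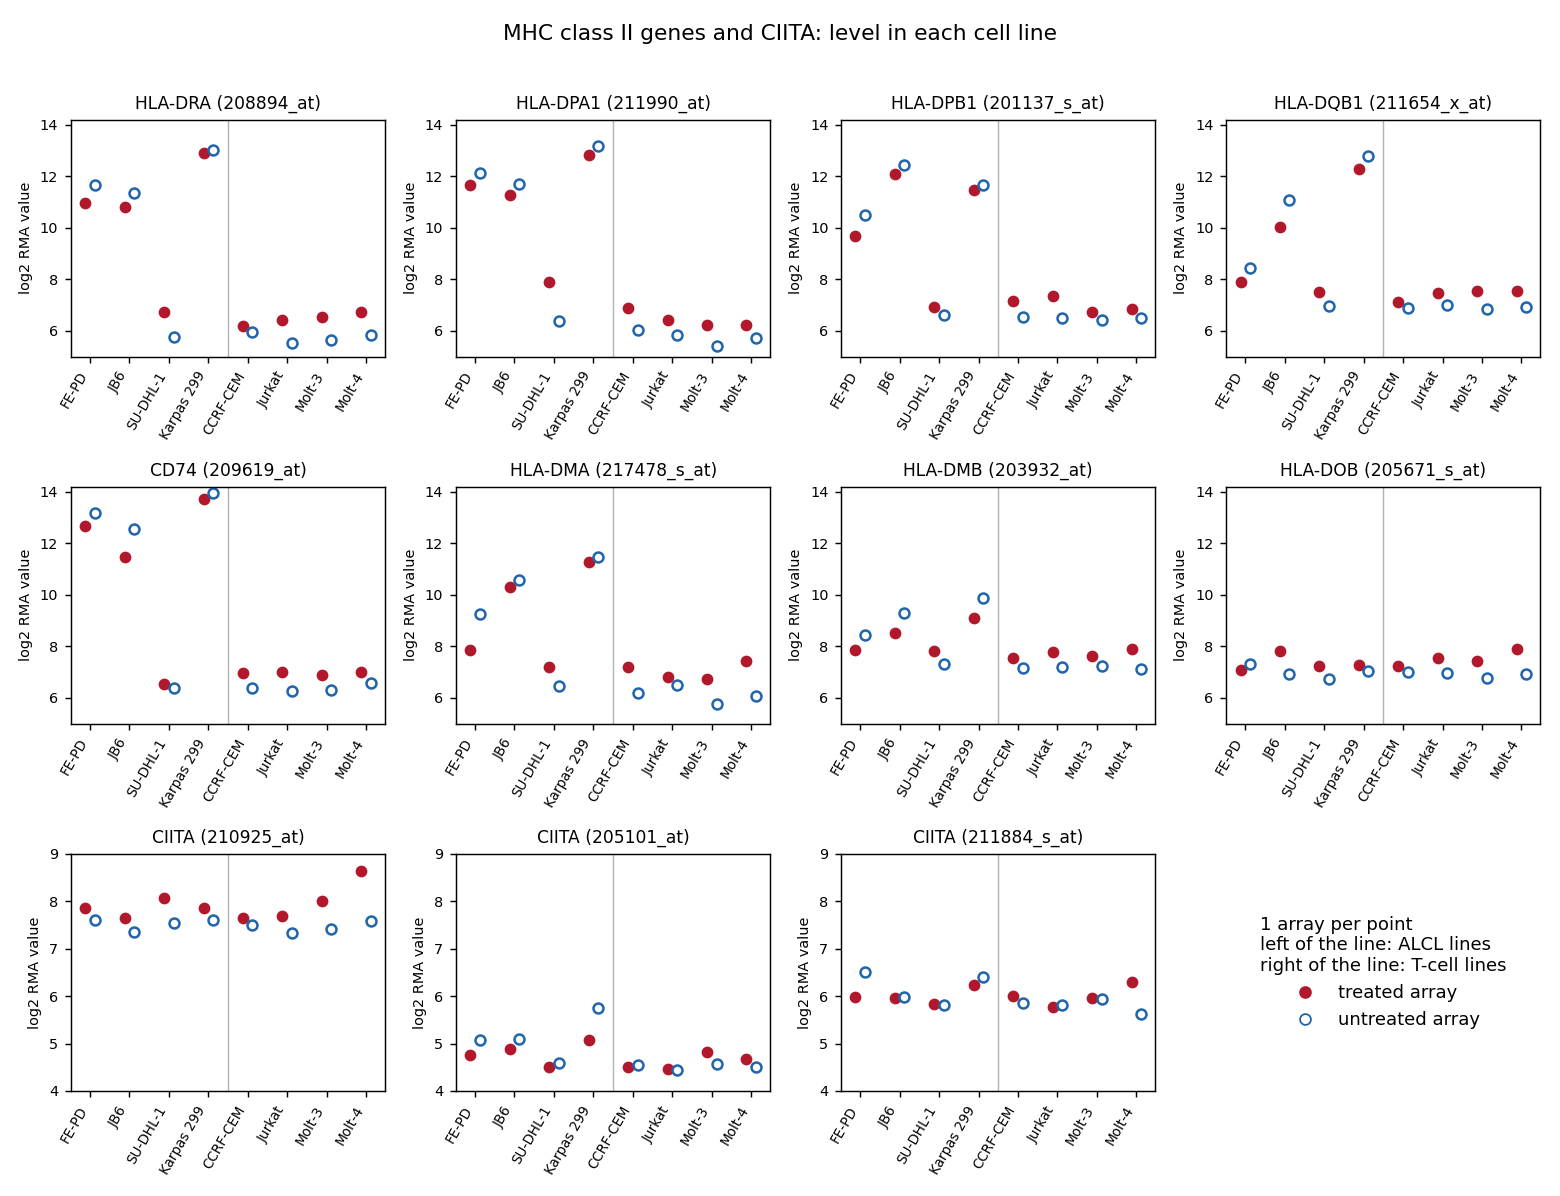
Level of each gene in each cell line (y axis, log2 RMA value; x axis, the 4 ALCL lines and then the 4 T-cell lines), treated arrays as filled red points and untreated arrays as open blue points, with CIITA shown for its 3 probe sets on a narrower scale. On untreated arrays FE-PD, JB6 and Karpas 299 stand high for 7 of the 9 genes, and HLA-DOB and CIITA on 210925_at vary little. Treated HLA-DMB in FE-PD (7.88) lies in the range of the treated T-cell lines (7.55 to 7.89). Treated CIITA on 210925_at runs from 7.64 to 8.65. SU-DHL-1 stands with or close to the T-cell lines except for treated HLA-DPA1 (7.90).

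HLA-DQB1 encodes the highly polymorphic beta chain of HLA-DQ and had 7 probe sets, which did not rank the lines alike. The set with the highest mean, 211654_x_at, read 8.45 in untreated FE-PD, 11.06 in JB6, 6.95 in SU-DHL-1 and 12.79 in Karpas 299, against 6.83 to 7.01 in the T-cell lines. On 211656_x_at the order turned, with 8.73 in FE-PD, 10.50 in JB6, 6.78 in SU-DHL-1 and 9.29 in Karpas 299, against 6.58 to 6.90 in the T-cell lines. Thus Karpas 299 led on the first set and JB6 on the second. On 209480_at, FE-PD (4.82) was near the T-cell lines (4.65 to 4.85), while JB6 reached 6.89 and Karpas 299 reached 9.43. On 212999_x_at, FE-PD read 4.06, JB6 5.82, SU-DHL-1 3.90 and Karpas 299 8.30, against 3.81 to 4.13 in the T-cell lines. On 210747_at only JB6 stood apart, at 5.65, with the other ALCL lines between 4.57 and 4.90 and the T-cell lines between 4.55 and 4.68. In Affymetrix naming, _x_at marks probe sets whose probes can match other genes, and _s_at those shared by several transcripts, so signals of HLA-DQ and of other close copies may be mixed. SU-DHL-1 stayed within 0.2 log2 units of the T-cell range on all 7 sets.

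**Figure D2:**
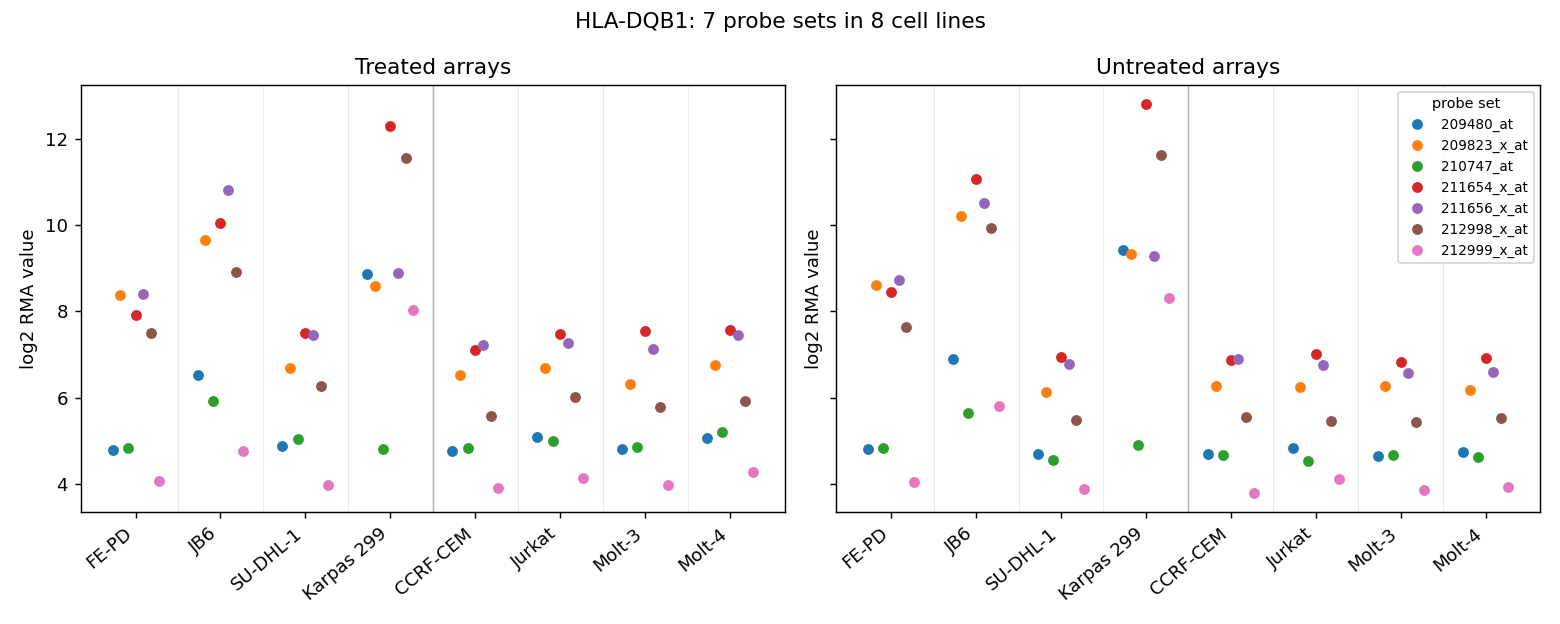
Level of HLA-DQB1 on its 7 probe sets (y axis, log2 RMA value; x axis, cell line, 1 point per array and probe set; treated arrays in the left panel, untreated arrays in the right panel). Karpas 299 is highest on 211654_x_at, 212998_x_at, 209480_at and 212999_x_at, JB6 on 211656_x_at, 209823_x_at and 210747_at, and SU-DHL-1 lies with the T-cell lines throughout.

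CIITA is the coactivator on which the group depends, and its 3 probe sets disagreed. On 205101_at, untreated FE-PD read 5.07, JB6 5.09, SU-DHL-1 4.58 and Karpas 299 5.74, against 4.55 in CCRF-CEM, 4.44 in Jurkat, 4.56 in Molt-3 and 4.50 in Molt-4. The lines with high class II levels were also the highest here, but by little: the ALCL lines averaged 5.12 ± 0.47 and the T-cell lines 4.51 ± 0.05 (SD, n = 4 each). On 211884_s_at, FE-PD (6.50) and Karpas 299 (6.41) were highest, JB6 read 5.99 and SU-DHL-1 5.81, against 5.62 to 5.95 in the T-cell lines. On 210925_at, which had the highest mean and therefore stands for CIITA in the tests, all untreated lines lay between 7.33 and 7.61, with an SD of 0.11. That SD was at percentile 8.3 of the SDs of all genes. The difference between untreated ALCL and T-cell lines was not called on any of the 3 sets.

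The spread between untreated lines was wide for most of the group. Of the 9 genes, 7 had an SD above percentile 95 of all genes and 6 above percentile 99, with CIITA and HLA-DOB the exceptions below percentile 95. On treated arrays 6 genes lay above percentile 95. For 7 genes the SD was smaller on treated than on untreated arrays, which was so for 41.3% of all genes. For CD74 it was 3.04 on treated arrays and 3.57 on untreated arrays, and for HLA-DMB 0.52 on treated arrays and 1.11 on untreated arrays.

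The first comparison asked whether untreated ALCL and T-cell lines differed. The differences were large and their errors were large too, because 1 of the 4 ALCL lines had low levels. CD74 was 5.14 ± 1.49 log2 units higher in untreated ALCL lines (SE, n = 4 lines each, limma adjusted p = 0.073). HLA-DPA1 was 5.09 ± 1.31 higher (limma adjusted p = 0.0505) and HLA-DRA 4.71 ± 1.38 higher (limma adjusted p = 0.0743). None of the 9 genes was called at a limma adjusted p below 0.05, where 8.76% of all genes were called. At an unadjusted limma p below 0.05 there were 7 of the 9, against 25.0% of all genes. The median difference over the 9 genes was 3.29, against 0.04 over all genes. In HLA-DPA1, HLA-DPB1 and HLA-DMB all 4 ALCL lines lay above all 4 T-cell lines, as did 8.61% of all genes.

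The number of calls turned on SU-DHL-1 and on the processing. With all lines kept, 5 genes were called without the lowest 40% of genes, 6 with a random line block and 7 with arrays centred on their spiked-in hybridisation controls. The same settings called 944 of 7178, 1293 of 11963 and 753 of 11963 genes. HLA-DRA and HLA-DPA1 had low means in untreated T-cell lines, 5.74 and 5.75. Whether such genes passed the filter through their ALCL values was not tested. Centring on the controls gave an infinite prior df, so all genes were tested with a shared variance. Those 7 calls therefore do not weigh each gene's own spread between lines. Without SU-DHL-1, 7 of the 9 genes were called higher in untreated ALCL lines, CIITA and HLA-DOB being the others, where 9.99% of all genes were called. CD74 was then 6.85 log2 units higher (limma adjusted p = 4.9e-05), HLA-DPA1 6.58 (limma adjusted p = 8.93e-05), HLA-DRA 6.27 (limma adjusted p = 0.000177) and HLA-DMB 2.03 (limma adjusted p = 0.0089). SU-DHL-1 is a labelled ALCL line, so leaving it out changes the comparison and does not correct it.

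On treated arrays the mean of the ALCL lines was above that of the T-cell lines in 7 of the 9 genes, with a median difference of 2.12 over the 9 genes, against -0.03 over all genes. HLA-DPA1 read 11.67 in treated FE-PD, 11.26 in JB6, 7.90 in SU-DHL-1 and 12.82 in Karpas 299, against 6.90 in treated CCRF-CEM, 6.42 in Jurkat, 6.21 in Molt-3 and 6.22 in Molt-4. Every treated ALCL line lay above every treated T-cell line. HLA-DPA1 was the only gene called, at 4.47 ± 0.87 log2 units higher in treated ALCL lines (SE, limma adjusted p = 0.029). Of all genes, 2.88% were called. The call rested on the HLA-DPA1 probe set used for the tests, and its other sets were not called. On 211991_s_at the difference was 3.83 ± 0.97 (SE, limma adjusted p over probe sets = 0.0862). On 213537_at it was 1.57 ± 0.60 (SE, limma adjusted p over probe sets = 0.249). Without SU-DHL-1 there were 4 calls, where 2.25% of all genes were called, and without any one of the other lines there were 0. HLA-DRA also did not overlap, although treated SU-DHL-1 and treated Molt-4 both round to 6.72. The other 7 genes overlapped, and CD74 in treated SU-DHL-1, at 6.53, lay under all 4 treated T-cell lines. Groups separated this way, with the ALCL lines on top, in 4.26% of all genes.

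**Figure D3:**
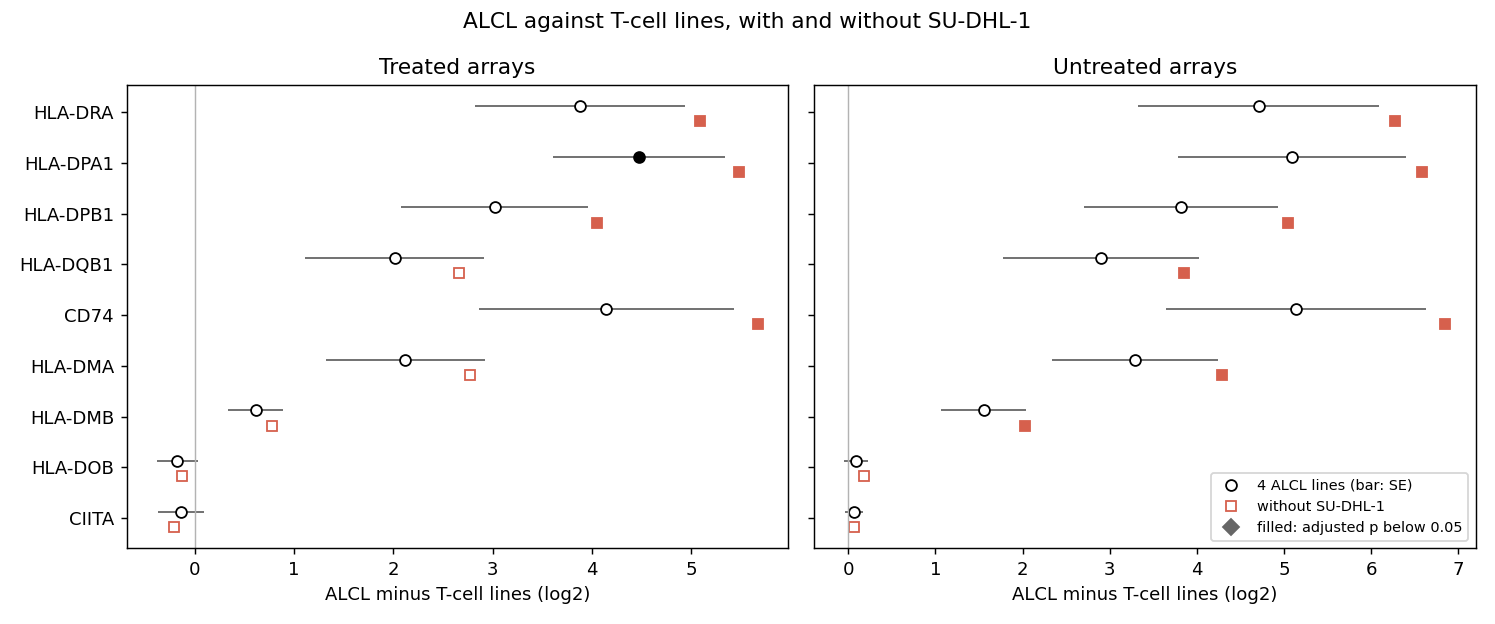
Difference between ALCL and T-cell lines for each gene (x axis, log2 units, ALCL minus T-cell; treated arrays left, untreated arrays right), with all 4 ALCL lines as black circles with SE bars and without SU-DHL-1 as red squares, filled where the limma adjusted p was below 0.05. Untreated, no circle is filled and 7 squares are filled, and CIITA and HLA-DOB lie near 0.

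In the T-cell lines, where the class II genes started low, the question was how the treated array differed. All 9 genes were higher on the treated array in each of the 4 T-cell lines, a pattern that 39.7% of all genes shared. There were 6 genes that rose at a limma adjusted p below 0.05 and none fell, while 21.7% of all genes were called higher and 41.9% were called in either direction. The median change was 0.58 over the 9 genes, against 0.14 over all genes.

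HLA-DMA had the largest fitted rise. It read 7.19 in treated CCRF-CEM, 6.80 in Jurkat, 6.72 in Molt-3 and 7.43 in Molt-4, against 6.19, 6.52, 5.76 and 6.08 in the same lines untreated. It rose by 0.90 ± 0.28 log2 units (SE, limma adjusted p = 0.03). HLA-DRA on 208894_at read 6.19, 6.42, 6.53 and 6.72 on treated arrays, against 5.97, 5.52, 5.63 and 5.84 on untreated arrays, and rose by 0.73 ± 0.25 (SE, limma adjusted p = 0.0392). Its other probe set, 210982_s_at, was 0.35 ± 0.28 higher and was not called (SE, limma adjusted p over probe sets = 0.329).

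CD74 read 6.98, 6.99, 6.88 and 7.0 in the treated T-cell lines, against 6.39, 6.26, 6.29 and 6.58 in the untreated lines. It rose by 0.58 ± 0.18 log2 units (SE, limma adjusted p = 0.0255) and stayed far under the untreated levels of FE-PD, JB6 and Karpas 299. HLA-DOB rose by 0.61 ± 0.18 (SE, limma adjusted p = 0.0237), with treated values of 7.23, 7.55, 7.44 and 7.91, against untreated values of 7.02, 6.95, 6.77 and 6.94. HLA-DPB1 rose by 0.53 ± 0.18 (SE, limma adjusted p = 0.0373). HLA-DPA1 was 0.69 ± 0.29 higher, HLA-DMB 0.53 ± 0.20 and HLA-DQB1 0.51 ± 0.21 (SE), and these did not pass, with limma adjusted p-values of 0.0761, 0.0593 and 0.0764. Of the 7 HLA-DQB1 probe sets, 211656_x_at alone was called, at 0.56 ± 0.18 higher (SE, limma adjusted p over probe sets = 0.0353).

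CIITA rose in the T-cell lines on 210925_at, by 0.53 ± 0.15 log2 units (SE, limma adjusted p = 0.0202). The treated values were 7.64 in CCRF-CEM, 7.69 in Jurkat, 8.0 in Molt-3 and 8.65 in Molt-4, against 7.51, 7.33, 7.41 and 7.59 untreated. Molt-4 moved most. On 205101_at the changes in these lines were -0.05, 0.02, 0.27 and 0.19, and on 211884_s_at 0.15, -0.04, 0.02 and 0.67, and neither set was called. The rise of CIITA thus appeared on 1 of its 3 probe sets.

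Other features of the treated arrays moved beside these rises. Genes with an untreated T-cell mean from 5 to 6 had a median change of 0.29 (quartiles 0.13 and 0.47, 1766 genes), and those from 6 to 7 a median of 0.32 (quartiles 0.12 and 0.51, 2597 genes), while highly expressed genes were mostly lower. The SD of all values within an array was 1.73 ± 0.09 on treated arrays and 1.89 ± 0.04 on untreated arrays (SD, n = 8 each). The 28S ribosomal RNA control probe set at the 3' end was over 1 log2 unit higher on the treated array in Molt-3, Molt-4, FE-PD, JB6 and SU-DHL-1. The 3' minus 5' signal of the actin control was 0.12 ± 0.38 on treated arrays and -0.48 ± 0.13 on untreated arrays (SD, n = 8 each). The part of these in the class II values was not tested beyond the splits given here. In the T-cell lines with the 28S rise, Molt-3 and Molt-4, 2 of the 9 genes were called, and in CCRF-CEM and Jurkat, without it, none was. Over all 11963 genes, 4122 were called with the rise and 1612 without it. All 9 fitted changes were positive in both pairs of lines.

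The 6 calls depended on the lines, the model and the scaling. There were 2 calls with cell line as a random block or with no replicate block, 2 with arrays centred on their median and 3 after quantile normalization. Over all 11963 genes these settings called 5476, 3642, 4254 and 4027, against 5018 in the main fit. Without Molt-3 or without Molt-4 none was called, without Jurkat 2 and without CCRF-CEM 3 were. In that order, 2520, 2572, 3878 and 4525 of all genes were called. Without SU-DHL-1, whose arrays enter the shared estimate of the spread, all 9 were called, and likewise with the T-cell arrays alone. Of all genes, 4700 and 5476 were called in these fits. With each array centred on its spiked-in hybridisation controls none was called, and 6 of the 9 fitted changes were then below 0, those of CIITA, CD74, HLA-DPB1, HLA-DMB, HLA-DOB and HLA-DQB1. With that centring 3006 of all genes were called, 63 of them higher.

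In the ALCL lines, the question was whether treatment changed levels that were already high in FE-PD, JB6 and Karpas 299. None of the 9 genes was called there by limma, where 21.4% of all genes were, 8.04% higher and 13.4% lower, and CD74 alone had an unadjusted limma p below 0.05, as did 36.4% of all genes. The median fitted change was -0.27 over the 9 genes, against 0.09 over all genes. The lines went different ways. Of the 9 genes, 8 were lower on the treated array in FE-PD, 7 in JB6, 0 in SU-DHL-1 and 7 in Karpas 299.

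CD74 read 12.69 in treated FE-PD, 11.49 in JB6, 6.53 in SU-DHL-1 and 13.73 in Karpas 299, against 13.19, 12.56, 6.37 and 13.94 untreated. The fitted change was -0.41 ± 0.18 log2 units (SE, limma adjusted p = 0.13). HLA-DRA read 10.96, 10.80, 6.72 and 12.90 on treated arrays, against 11.67, 11.36, 5.76 and 13.00 on untreated arrays, so that only SU-DHL-1 was higher. HLA-DMA read 7.87, 10.29, 7.19 and 11.28 on treated arrays, against 9.24, 10.58, 6.45 and 11.47 on untreated arrays, with its largest change, -1.37, in FE-PD. HLA-DMB read 7.88, 8.51, 7.82 and 9.10 on treated arrays, against 8.44, 9.31, 7.32 and 9.89 on untreated arrays, and its changes in FE-PD, JB6 and Karpas 299 lay between -0.57 and -0.81.

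SU-DHL-1 was the exception among the ALCL lines. All 9 genes were higher on its treated array, by 0.16 for CD74 to 1.53 for HLA-DPA1, with a median of 0.51. Over all genes its median change was 0.13, and 60.2% of genes were higher. All 9 members had an untreated value under 8 in this line. There the median change was 0.24 for genes under 6 and 0.25 for genes from 6 to 8. The corresponding medians of the 9 genes were 0.37 in CCRF-CEM, 0.59 in Jurkat, 0.66 in Molt-3 and 0.77 in Molt-4, and -0.54 in FE-PD, -0.43 in JB6 and -0.19 in Karpas 299. HLA-DPA1 in SU-DHL-1 read 7.90 treated and 6.38 untreated, and its other probe sets changed by 0.53 and 0.61 there. On this probe set, 211990_at, treated SU-DHL-1 stayed over 3 log2 units under the other treated ALCL lines.

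**Figure D4:**
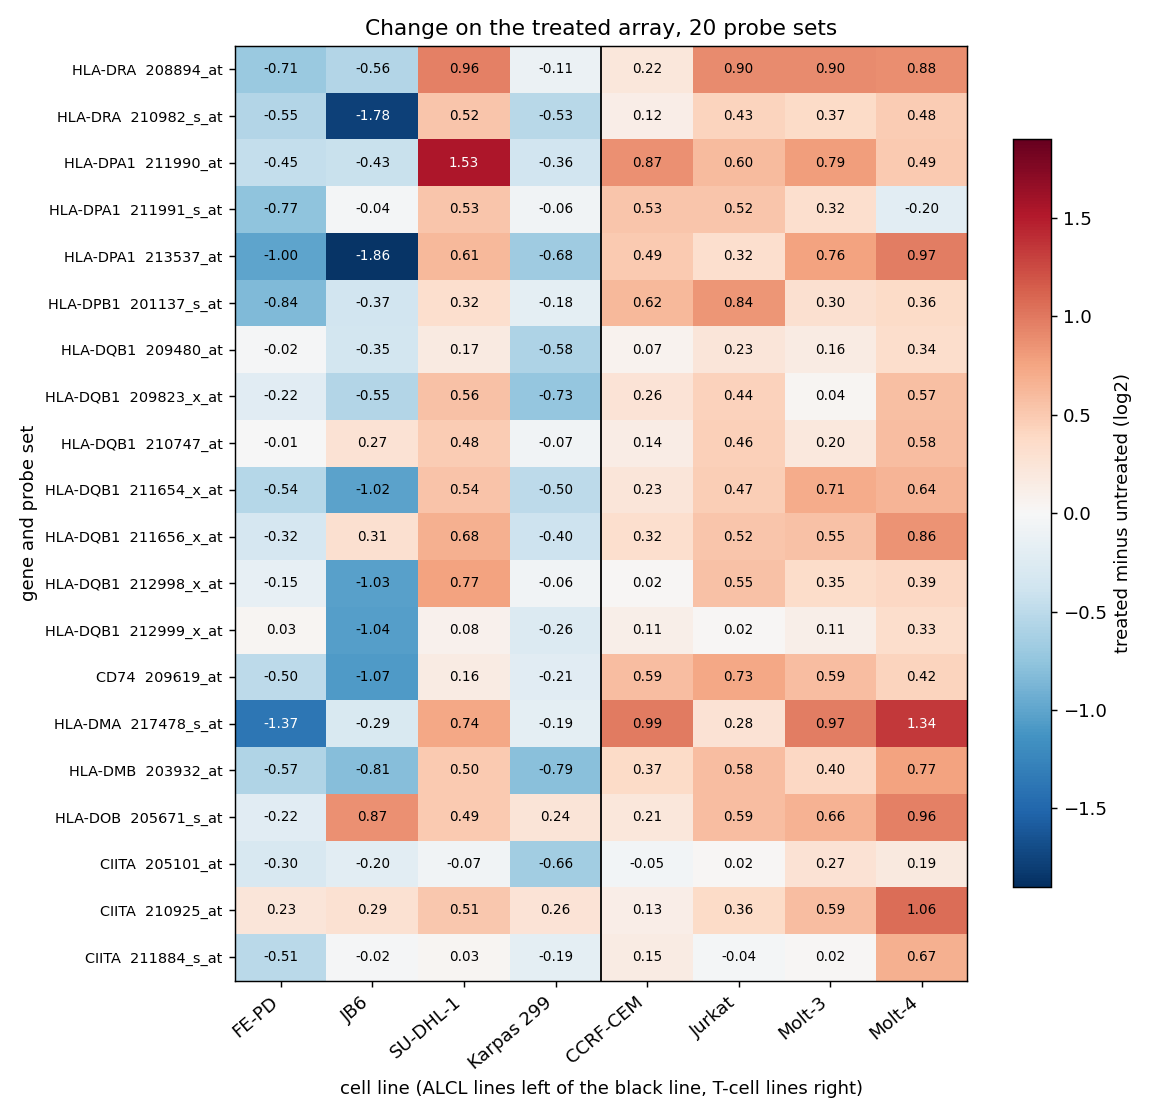
Treated minus untreated value (log2, printed in each cell and coloured red where higher and blue where lower on the treated array) of the 20 probe sets (rows) in each cell line (columns, ALCL lines left of the black line). FE-PD and Karpas 299 were lower on 18 of the 20 probe sets and JB6 on 16, and SU-DHL-1 was higher on 19.

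Without SU-DHL-1, HLA-DMB fell by 0.72 log2 units in the ALCL lines (limma adjusted p = 0.0133) and HLA-DQB1 fell by 0.69 (limma adjusted p = 0.0273), and no other member was called, where 12.8% of all genes were. With all ALCL lines kept, neither was called (limma adjusted p = 0.169 and 0.224). SU-DHL-1 was the only ALCL line in which every member was higher, so leaving it out favours falls and does not test them. In JB6 some probe sets moved more than those used for the tests: 213537_at of HLA-DPA1 changed by -1.86 and 210982_s_at of HLA-DRA by -1.78, beside -0.43 on 211990_at and -0.56 on 208894_at of the same genes. Highly expressed genes were generally lower on treated arrays. In JB6, genes with an untreated value of 10 or more had a median change of -1.01 (887 genes), and most members above 10 there were lowered by less than that. In FE-PD the same median was -0.31 (840 genes) and the members above 10 changed by -0.45 to -0.84. In Karpas 299 it was -0.27 (887 genes), and the members above 10 changed by -0.11 to -0.50.

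**Figure D5:**
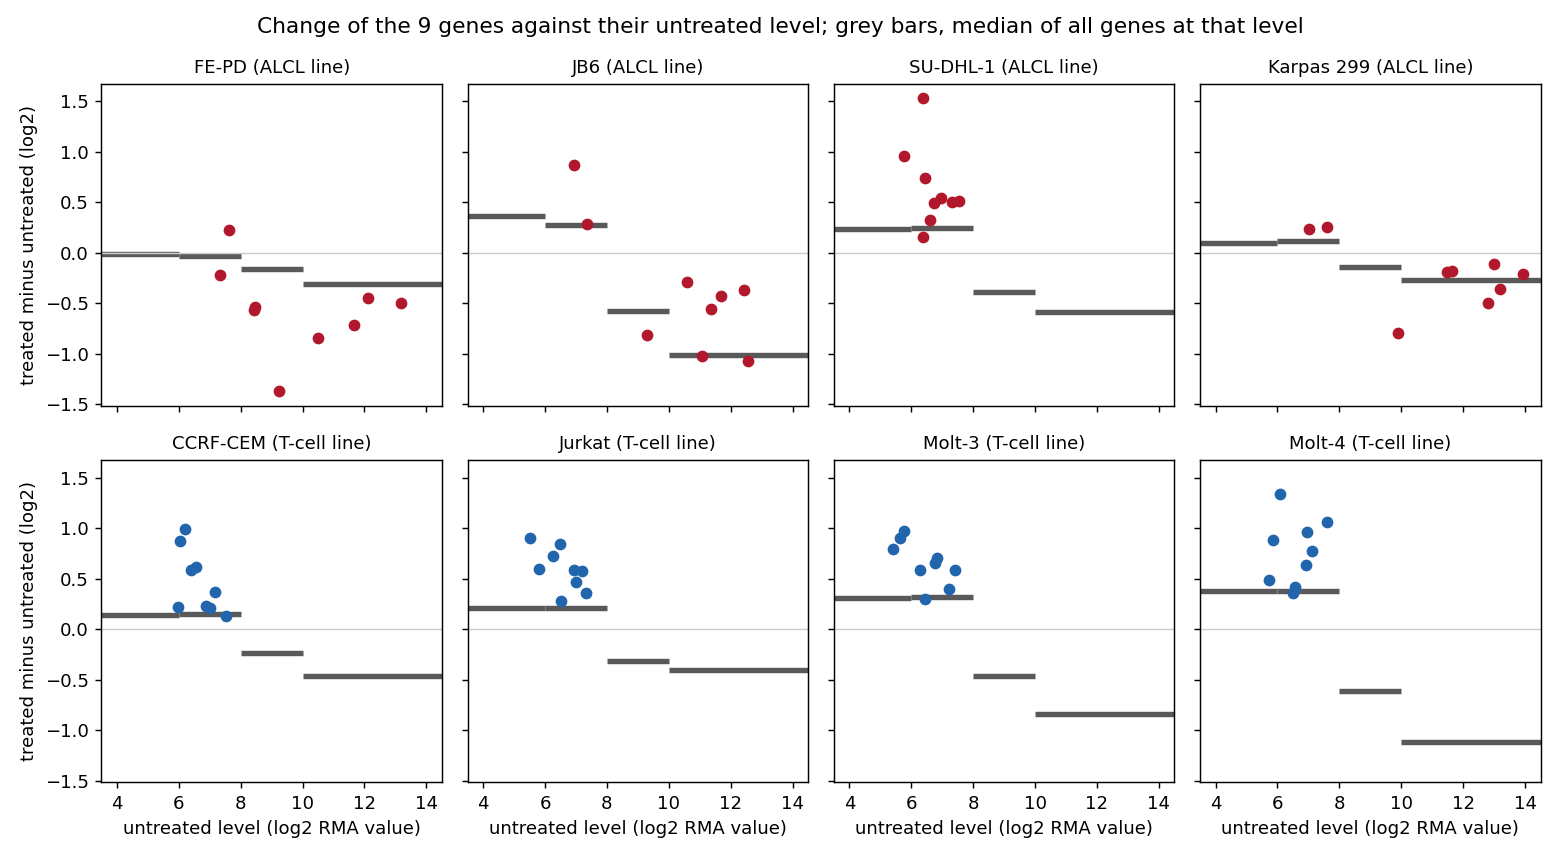
Change of the 9 genes on the treated array (y axis, treated minus untreated, log2) against their untreated level (x axis, log2 RMA value), 1 panel per line, ALCL lines in the upper row; grey bars give the median change of all genes whose untreated value fell in the range the bar spans. Points with a high untreated value lie below 0 in FE-PD, JB6 and Karpas 299, and all points of SU-DHL-1 and the T-cell lines lie above 0 at untreated values under 8.

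The difference between the treatment effects of the cell types was tested directly. It was negative for all 9 genes, meaning a lower change in the ALCL lines, with a median of -0.83, against -0.05 over all genes. The median over all genes is not matched for level. Genes with an untreated value of 10 or more had median changes of -0.31 in FE-PD, -1.01 in JB6 and -0.27 in Karpas 299. Those from 6 to 8 had medians of 0.15 in CCRF-CEM, 0.21 in Jurkat, 0.32 in Molt-3 and 0.38 in Molt-4. How much of the difference goes with level was not tested. CD74 gave -0.99 ± 0.25 log2 units (SE, limma adjusted p = 0.0971), HLA-DMB -0.94 ± 0.29 (SE, limma adjusted p = 0.173) and HLA-DMA -1.17 ± 0.40 (SE, limma adjusted p = 0.227). None was called by limma, where 1.68% of all genes were, and 6 of the 9 had an unadjusted limma p below 0.05, against 13.0% of all genes. Without SU-DHL-1, CD74, HLA-DPA1, HLA-DMB and HLA-DQB1 were called lower in the ALCL lines, where 1.61% of all genes were called. Every member was higher on the treated array of SU-DHL-1, so leaving this line out favours such calls. Over all 8 lines, CIITA rose by 0.43 ± 0.11 (SE, limma adjusted p = 0.00874, on 210925_at) and HLA-DOB rose by 0.48 ± 0.13 (SE, limma adjusted p = 0.0116), where 29.9% of all genes were called higher and 53.6% in either direction. HLA-DOB was higher in 7 of 8 lines. CIITA was higher in 8 of 8 lines on 210925_at, in 4 on 211884_s_at and in 3 on 205101_at, and the values do not settle which set reads CIITA best. On 205101_at the CIITA change over all lines was -0.10.

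Other class II genes were also listed. Of 9, 6 were measured. In the T-cell lines 3 of them, HLA-DRB1, HLA-DRB4 and HLA-DRB6, rose, where 21.7% of all genes were called higher. None was called in the ALCL lines, where 21.4% of all genes were. None was called between untreated ALCL and T-cell lines, where 8.76% of all genes were, and the median difference over the 6 was 1.03. HLA-DRB1, the main beta chain of HLA-DR, read 11.09 in untreated FE-PD, 11.92 in JB6, 6.52 in SU-DHL-1 and 12.71 in Karpas 299, against 6.59 to 6.80 in the untreated T-cell lines. It rose by 0.69 ± 0.25 log2 units in the T-cell lines (SE, limma adjusted p = 0.0455). HLA-DQA1, the partner chain of HLA-DQB1, was high in untreated JB6 (9.82) and Karpas 299 (11.39) but not in FE-PD (5.90) or SU-DHL-1 (5.64), against 5.47 to 5.88 in the T-cell lines. HLA-DRB4 is absent from some human haplotypes, and its probe set may read other DRB genes.

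Among factors that bind class II promoters, listed together with coactivators, falls outnumbered rises. Of 12 listed factors, 8 fell and none rose in the T-cell lines, with a median of -0.80, and 4 fell and none rose in the ALCL lines, with a median of -0.55. Over all genes, 20.2% fell in the T-cell lines and 13.4% in the ALCL lines. These shares are not matched for level. The mean of the list was 7.93 to 8.04 in untreated T-cell lines. Genes with untreated values from 8 to 10 had median changes of -0.24 in CCRF-CEM to -0.61 in Molt-4, and those from 6 to 8 of 0.15 to 0.38. How much of the falls goes with level was not tested. NFYC, a subunit of NF-Y, fell by 1.50 ± 0.19 log2 units in T-cell lines (SE, limma adjusted p = 0.000437) and fell by 1.16 ± 0.19 in ALCL lines (SE, limma adjusted p = 0.00252). RFXANK, an RFX subunit, fell by 1.00 ± 0.15 in T-cell lines (SE, limma adjusted p = 0.0011) and fell by 0.54 ± 0.15 in ALCL lines (SE, limma adjusted p = 0.0315). In SU-DHL-1 untreated RFX5, RFXANK and RFXAP read 8.21, 8.45 and 6.38, and in the other ALCL lines RFX5 ran from 8.76 to 10.45, RFXANK from 8.01 to 8.70 and RFXAP from 5.92 to 6.26.

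Interferon-gamma signalling induces CIITA in many cells. Of 11 measured genes listed around this path, 5 were called higher in untreated ALCL lines and none lower, against 3.18% and 5.58% of all genes. The list mixes inducers, inhibitors and other regulators of CIITA, so this count does not measure the activity of the path. IRF4, a lymphoid transcription factor, was 4.86 ± 0.26 log2 units higher (SE, limma adjusted p = 3.51e-05), and SOCS1, an inhibitor of cytokine signalling, 3.78 ± 0.36 higher (SE, limma adjusted p = 0.00081). Both were high in SU-DHL-1 as well, at 10.79 and 9.90 untreated, so they did not separate that line from the other ALCL lines as class II did. IRF1, which drives the interferon-inducible CIITA promoter, fell by 1.14 ± 0.11 in the T-cell lines (SE, limma adjusted p = 0.000142). Its change was 1.32 ± 0.16 higher in ALCL than in T-cell lines (SE, limma adjusted p = 0.00341). JAK1, a cytoplasmic kinase that binds cytokine receptors, rose in both, by 0.84 in ALCL lines (limma adjusted p = 0.00282) and by 0.82 in T-cell lines (limma adjusted p = 0.00191).

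Markers of other cells that normally carry class II were read on the same arrays. The mean of 13 measured B-cell genes ran from 6.25 to 6.53 in untreated ALCL lines, against 6.39 to 6.66 in untreated T-cell lines. MS4A1, which encodes CD20, read 6.07 in untreated FE-PD, 6.10 in JB6, 5.96 in SU-DHL-1 and 6.17 in Karpas 299. CD14, a monocyte marker, read 5.90, 5.44, 5.45 and 5.49 there. CD163, a macrophage scavenger receptor, stood apart in SU-DHL-1, the ALCL line with low class II levels, at 7.98 treated and 10.91 untreated, against untreated values of 6.23 to 6.28 in the other ALCL lines and 5.84 to 6.07 in the T-cell lines. The mean of 13 myeloid and dendritic genes ran from 6.10 to 6.94 in untreated ALCL lines, against 5.81 to 6.04 in untreated T-cell lines, and CSF1R was higher in all 4 ALCL lines, SU-DHL-1 included. Of these 13 genes, 1 was called higher in untreated ALCL lines, CSF1R, and 1 lower, CD1C. CD1C was 1.67 ± 0.31 log2 units lower (SE, limma adjusted p = 0.0173). Over all genes, 3.18% were called higher and 5.58% lower. In the treated T-cell lines 5 of the 13 B-cell genes rose beside the class II genes and 1 fell, where 21.7% of all genes rose and 20.2% fell, and MS4A1 rose by 1.06 ± 0.28 (SE, limma adjusted p = 0.016), most in Molt-4. The part of that shift in the class II values was not tested. The mean of 10 T-cell genes was 6.93 to 7.57 in untreated ALCL lines, against 9.47 to 10.14 in untreated T-cell lines. Of 10 listed T-cell activation genes, 2 were called higher in untreated ALCL lines, IL2RA and TNFRSF8, and 1 lower, CD69. The median difference over these 10 was 0.03. TNFRSF8 (CD30), which defines ALCL, was 3.66 ± 0.31 higher (SE, limma adjusted p = 0.000507). CD69 was 1.95 ± 0.41 lower (SE, limma adjusted p = 0.0251). With RNA from bulk cultures, fewer cells with a transcript and less of it per cell cannot be told apart.

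Across the 16 arrays, the genes most like HLA-DRA outside the group were HLA-DRB1 (Pearson r = 0.990), HLA-C (r = 0.982), CA2 (r = 0.977), LGALS3 (r = 0.961) and HLA-DRB6 (r = 0.961). These r values describe 2 arrays of each line, in which FE-PD, JB6 and Karpas 299 form 1 cluster and the other lines another, so no test is attached. CA2, carbonic anhydrase, read 8.71 in untreated FE-PD, 9.43 in JB6, 5.06 in SU-DHL-1 and 8.74 in Karpas 299, against 5.11 to 5.25 in the T-cell lines. LGALS3, galectin-3, read 9.14, 9.28, 6.36 and 12.22, against 6.11 to 6.62. For CIITA on 210925_at the most similar genes were BPIFA1 (r = 0.962), SULT1C2 (r = 0.958), SLC17A2 (r = 0.950), ALX1 (r = 0.949) and SYT13 (r = 0.949). For CIITA on 205101_at, added after its values were seen, IRF5 led (r = 0.937), which read 8.34 in untreated FE-PD, 8.20 in JB6, 7.46 in SU-DHL-1 and 10.65 in Karpas 299, against 7.06 to 7.25 in the T-cell lines. The pair of CIITA probe sets therefore had no gene in common among their 5 nearest.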

How the data were processed

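Deposited values were log2 expression summaries that the authors made with R 2.10.1 and RMA, per the submitters' processing notes. Probe set definitions, filters and scanner settings were not given in the sources used here. Detection calls were not used here, and the number of arrays limits the precision. The log2 values ran from 3.36 to 14.4, and array medians from 6.78 to 6.96. Symbols came from the platform annotation: 19065 of 22283 probe sets had 1 symbol, 1043 several, 2107 none listed, and 68 were controls.

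Each gene was represented by its probe set of highest mean. Treatment effects were fitted with limma 3.58.1 (R 4.3.3, lmFit and eBayes, two-sided) on all 16 arrays with cell line as a fixed block. Untreated and treated cell types were compared on 8 arrays each. Calls were made at a Benjamini-Hochberg adjusted p below 0.05 over 11963 genes. The pairing comes from the labels' cell line names: each line's arrays deviated from their group means together (correlation 0.33 to 0.643). Treated Molt-3 correlated at 0.4135 with its own untreated array and at 0.3986 with that of another T-cell line. The correlations thus hardly tell Molt-3 from that line. Nothing states that arrays came from separate cultures beyond their line names, so p-values measure the spread between lines.

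The fits were tested on simulated data. Members and gene lists were chosen with earlier results of these data known. All members and probe sets are named, with up to 4 genes per list by smallest p in the comparison described, genes cited for their level in SU-DHL-1 or as markers (RFX5, RFXAP, MS4A1, CD14, CSF1R, TNFRSF8, HLA-DQA1, JAK1, CD163, HLA-B) being exceptions. Alternatives covered probe set choice, filtering, array scaling, variance prior, block, 28S signal and leaving out each line.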

Additional observations from a re-analysis of the deposited data

Results flagged for a closer look

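Each group of 4 arrays was checked on each probe set for a value far from the others, by the gap to the nearest value over the whole range. Of 80 groups, 2 held such a value, and chance flags about 1 in 20. CD74 in treated Molt-3 read 6.88, under the 6.98 to 7.0 of the other treated T-cell lines, a narrow range in which all 4 lines lie close together. HLA-DQB1 on 211654_x_at in treated CCRF-CEM read 7.11, under the 7.48 to 7.56 of the other treated T-cell lines.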

How the results depend on the processing

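Cell lines, 1 array per condition, limit every call, and no detection calls were used. Over 1065 values of single genes under alternatives, 899 kept their direction and side of the threshold, 66 lost a call, 50 gained one, 7 called values changed sign and 43 uncalled values changed sign. With arrays centred on the hybridisation spikes, the T-cell changes became -0.15 for CIITA, -0.10 for CD74, -0.15 for HLA-DPB1, -0.15 for HLA-DMB, -0.17 for HLA-DQB1 and -0.074 for HLA-DOB, and the changes over all lines -0.22 for CIITA and -0.17 for HLA-DOB; CIITA over all lines was -0.10 on 205101_at. That centring moved the median of all genes to -0.54 in T-cell lines, against 0.14, and gave an infinite prior df, so genes were tested with 1 shared variance.

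Members called in T-cell treatment (6) numbered 3 after quantile normalization, 2 centred on the array median, 0 centred on the spikes, 2 with no replicate block, 2 with a random block, 2 in lines with the 28S rise, 0 in lines without it, 9 with T-cell arrays alone, and 0 to 9 leaving out lines. Over all lines (2) there were 1 with the mean of probe sets, 0 on the spikes and 0 without the 28S rise. Between untreated types (0) there were 5 without the lowest 40% of genes, 1 on the array median, 7 on the spikes, 1 with an intensity trend, 6 with a random block and 0 to 7 leaving out lines. Between treated types (1) there were 0 with the mean of probe sets, 6 on the spikes and 0 to 4 leaving out lines. Leaving out lines gave 0 to 2 in ALCL treatment (0) and 0 to 4 for the difference (0).

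Counts over all genes moved as well. T-cell treatment (5018) gave 3006 on the spikes, 1612 without the 28S rise, 2520 without Molt-3 and 2572 without Molt-4. ALCL treatment (2566) gave 1440 with no replicate block, 87 without the 28S rise, 1432 without JB6 and 1526 without SU-DHL-1. The difference (201) gave 64 on the spikes, 62 with no replicate block, 29 without the 28S rise, 67 without Molt-3 and 88 without Molt-4. All lines (6411) gave 1322 without the 28S rise. Untreated types (1048) gave 455 without Molt-3 and 476 without Molt-4. Treated types (345) gave 585 with a random block, 203 without CCRF-CEM, 130 without Molt-3 and 217 without Molt-4. Higher and lower calls in T-cell treatment were 2601 and 2417, against 1533 and 2721 on the array median and 63 and 2943 on the spikes. On the spikes they were 73 and 1975 in ALCL treatment (962 and 1604), 107 and 4277 over all lines (3575 and 2836; 2364 and 3174 on the array median), 49 and 15 for the difference (133 and 68), 565 and 188 between untreated types (380 and 668), and 272 and 21 between treated types (162 and 183). The causes were not tested.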

Other observations

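Class I molecules present peptides from the cytosol, and more genes of this pathway fell than rose. Of 14 measured, 6 fell and 1 rose in the T-cell lines, and 6 fell and none rose in the ALCL lines. Over all genes, 20.2% fell and 21.7% rose in the T-cell lines, and 13.4% fell and 8.04% rose in the ALCL lines. PSMB8, an immunoproteasome subunit, fell by 3.31 ± 0.29 log2 units in T-cell lines (SE, limma adjusted p = 8.26e-05) and fell by 2.11 ± 0.29 in ALCL lines (SE, limma adjusted p = 0.00108). TAPBP, which links class I to the peptide transporter, fell by 2.28 ± 0.25 in T-cell lines (SE, limma adjusted p = 0.000258) and fell by 1.55 ± 0.25 in ALCL lines (SE, limma adjusted p = 0.00252). HLA-B rose by 0.52 ± 0.19 in T-cell lines (SE, limma adjusted p = 0.0477).

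Among 12 measured genes of the endosomal compartment where class II is loaded, 3 rose and none fell in T-cell lines, a share of rises near that of all genes (21.7%), and 3 rose and 1 fell in ALCL lines, where 8.04% of all genes rose. LGMN, an endosomal protease that cuts CD74 and antigens, rose by 2.60 ± 0.34 log2 units in T-cell lines (SE, limma adjusted p = 0.000473) and by 1.72 ± 0.34 in ALCL lines (SE, limma adjusted p = 0.00617). CTSB rose in both, by 0.91 ± 0.14 in T-cell lines and 1.09 ± 0.14 in ALCL lines (SE, limma adjusted p-values 0.000943 and 0.000687). CTSS, the protease that completes CD74 removal, was 1.50 ± 0.32 higher in untreated ALCL lines (SE, limma adjusted p = 0.0267). It fell by 0.65 ± 0.20 on treatment there (SE, limma adjusted p = 0.0458).

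Among receptors and costimulators, CD58, the ligand of CD2, fell by 2.40 ± 0.38 log2 units in T-cell lines (SE, limma adjusted p = 0.00125) and by 1.77 ± 0.38 in ALCL lines (SE, limma adjusted p = 0.00917). CD40 and CD80, costimulators of antigen-presenting cells, rose in T-cell lines by 0.69 ± 0.12 and 0.67 ± 0.16 (SE, limma adjusted p-values 0.00239 and 0.0107). Of 9 measured genes in this list, 2 rose and 1 fell in T-cell lines, where 21.7% and 20.2% of all genes did, so the share of rises was near that of all genes. The counts were the same in ALCL lines, where 8.04% of all genes rose and 13.4% fell.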
